A study of Mus musculus with 6 samples.

Results

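The 44 genes described here encode neuropeptide precursors, the receptors of those peptides, a peptide binding protein and an inhibitor of a precursor-cleaving enzyme. They were found by gene symbol in the platform's annotation, which gave 68 of the 45037 probe sets of the array to them. Of the 44 genes, 18 are precursors, 24 are receptors and 2 have the other roles. RNA of mouse cerebral cortex was hybridised to 6 Affymetrix arrays, one probe set being a group of short probes read together as 1 signal. The descriptions put 3 arrays under wild type and 3 under a double knockout of Egr1 and Egr3, genes of activity-induced zinc finger transcription factors. The sources used here do not state strain, sex, age, the kind of allele or any pooling of animals. The title of double knockout replicate 1 names no genotype, so that array is placed by its description alone. No label ties an array to an animal of its own, and p-values therefore measure the spread between arrays only.

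Neuropeptides are cut from longer precursors inside dense core vesicles and released when a neuron is strongly active. Most of them act on G protein-coupled receptors, over longer distances and times than amino acid transmitters. In the cortex many are made by inhibitory interneurons, and Sst, Vip and Npy are used to name interneuron classes. Cck and Adcyap1 are also made by excitatory neurons.

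Several features of the whole series bear on what follows. Array medians lay between 36.2 and 39.5 signal units. Egr3 fell in the double knockout label group (log2 -1.80, SE 0.32, limma adjusted p = 0.0361) while Egr1 stood 0.67 higher (SE 0.17, adjusted p = 0.108), so the Egr1 signal went against the label and the groups are called by their labels. The sources used here do not say where the probes lie in these genes or which part was deleted. Double knockout replicate 2 had a Xist signal of 3140, against at most 42.5 elsewhere, and 0.630 for the Y-linked Eif2s3y, against at least 383 elsewhere, which are the levels of a female. Spiked controls were dim in wild type replicate 1, with a median of 566 against at least 1207. The 3' to 5' ratio of the Gapdh control did not overlap between groups (0.806 to 0.873 and 0.881 to 0.9497). That of the Actb control did overlap (1.58 to 1.95 and 1.68 to 1.89). Cortical excitatory neuron markers were all expressed above the filter on low signal, 10 of 10 with a probe set, whereas 7 of 9 hypothalamic markers were below it. Choroid plexus markers summed to 11248 in wild type replicate 3 and 4881 in double knockout replicate 1, against 182 to 497 in the other arrays. In double knockout replicate 1 this was Ttr almost alone (4697), and the median deviation of the list was -0.52 there, against 1.45 in wild type replicate 3. Microglia markers summed to 3508 to 4067 in wild type arrays and 2639 to 3295 in the other group. Endothelial and mural markers summed to 1698 to 2036 and 1302 to 1637, while their median deviation overlapped (-0.07 to 0.11 and -0.19 to 0.14 in log2). Oligodendrocyte markers summed to 18240 to 19780 and 20407 to 23882, while their median deviation overlapped (-0.23 to 0.23 and -0.16 to 0.36 in log2). Of the marker genes tested, Aqp4, the water channel of astrocytes, was the one that passed (log2 -0.96, limma adjusted p = 0.0139). The part of these differences between arrays in the results below was not tested.

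Of the tested neuropeptide genes 3 passed the test and 31 did not. The receptor genes Gpr83 and Npy5r fell in arrays under the double knockout label and the peptide gene Vip rose. Npy5r passed on its brighter probe set only. Of the 68 probe sets, 43 were bright enough to be tested, and they represented 34 of the 44 genes. A probe set was tested if its mean over the 6 arrays lay in the brighter part of the array, above about 36.6 signal units. Of the 43, 4 passed a limma adjusted p of 0.05, 1 of them higher and 3 lower, which is 9.30%, against 1.02% of all 22518 tested probe sets (0.426% higher and 0.591% lower). Both Gpr83 probe sets are among the 4. The brighter Npy5r probe set is too, and both Npy5r probe sets were tested only through the wild type signals. The genes were also chosen with earlier results of these data known, so the excess is a description. The groups did not overlap for 12 of the 43 (27.9%), near the 22.3% of all tested probe sets. With the brightest probe set of each gene it was 10 of 34 genes (4 lower, 6 higher), against 23.3% of all tested genes. In whole cortex RNA, fewer cells of a type and less RNA per cell cannot be told apart.

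**Figure D1:**
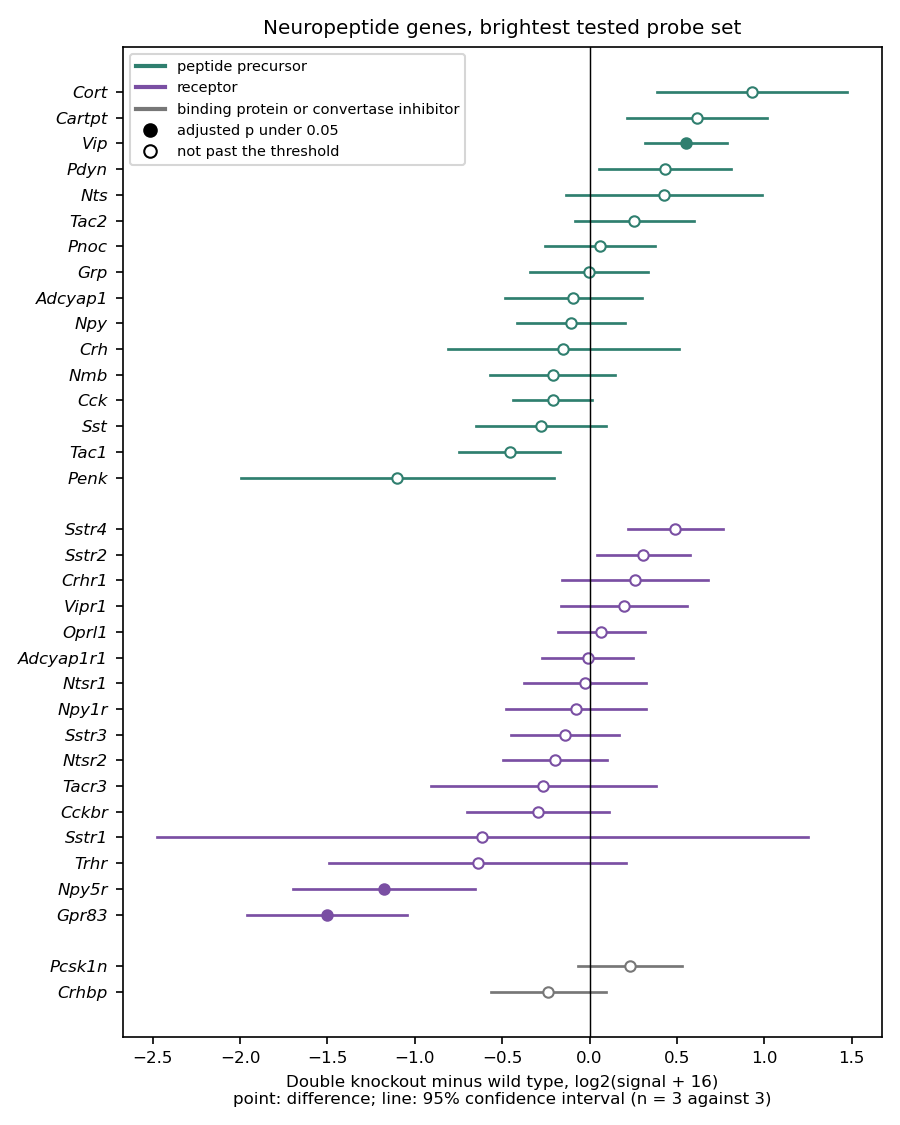
Log2 difference (double knockout minus wild type, horizontal axis) of the brightest tested probe set of 34 neuropeptide genes, with 95% confidence intervals from limma and filled points for adjusted p under 0.05. Gpr83 at -1.51, Npy5r at -1.18 and Vip at 0.55 are filled, and Sstr1 has the widest interval.

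Gpr83 showed the largest difference among the tested members. It encodes a receptor that responds to the peptide PEN, a product of the Pcsk1n precursor. Its brighter probe set read 234, 160.1 and 221 in wild type replicates 1, 2 and 3 and 72.9, 41.7 and 73.0 in double knockout replicates 1, 2 and 3. The lowest wild type array stood well above the highest array of the other group. The fall was from 205 ± 39.6 (SD, n = 3) to 62.5 ± 18.05 (SD, n = 3), a change of -1.51 in log2 (SE 0.21, adjusted p = 0.0113 in limma). The dimmer probe set read 170.2, 143 and 182 in the wild type group and 70.3, 42.7 and 47.1 in those with the double knockout label, again with no overlap. In log2 its change was -1.40 (SE 0.18, limma adjusted p = 0.00929), so both probe sets gave the same direction and similar size. The brighter one lost the call without wild type replicate 1 (adjusted p = 0.0549) and the dimmer one without double knockout replicate 3 (adjusted p = 0.0531). With no filter neither passed (limma adjusted p = 0.105 for the brighter and 0.0836 for the dimmer one). Each passed in 11 of 14 alternatives. Without the female array, double knockout replicate 2, the changes were -1.30 (adjusted p = 0.0423) and -1.29 (0.0456), and without that array and wild type replicate 1 together neither passed (0.155 and 0.163).

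The precursor of its ligand gave no such difference. Pcsk1n encodes proSAAS, a precursor of PEN and an inhibitor of the prohormone convertase Pcsk1. Its signal was 2725, 2157 and 2125 in wild type arrays and 2958, 2365 and 2903 in the double knockout label group, with overlapping groups. The log2 difference was 0.23 (95% interval -0.06 to 0.53, limma adjusted p = 0.415).

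Npy5r, a receptor for neuropeptide Y, fell on its brighter probe set. That probe set read 94.2, 148 and 68.5 in the wild type group and 42.1, 34.7 and 28.8 in arrays under the double knockout label. Wild type replicate 2 was the highest, and the groups did not overlap. The change in log2 was -1.18 (SE 0.23, adjusted p = 0.0497 in limma), close to the threshold. Its mean in the lower group, 35.2, was under the filter level of about 36.6, as was that of the dimmer probe set (36.1), so both were tested only through the wild type signals. The dimmer probe set read 59.5, 70.5 and 53.9 against 46.6, 28.8 and 33.0 and also did not overlap, with a log2 difference of -0.58 (SE 0.18, adjusted p = 0.161) that did not pass. The signals of the lower group were near the array medians, and the log2 change was -1.47 with a pseudocount of 1 and -0.73 with 64 (adjusted p = 0.0466 and 0.0586). Of the 6 fits with 1 array left out the call held only without wild type replicate 3 (adjusted p = 0.0270). It was lost without wild type replicates 1 (0.107) and 2 (0.0654) and without double knockout replicates 1 (0.0834), 2 (0.169) and 3 (0.190).

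Npy and Npy1r did not pass, and Npy2r could not be tested. Npy read 1823, 1548 and 1523 in wild type arrays and 1231, 1756 and 1591 in those with the double knockout label, a log2 difference of -0.11 (95% interval -0.42 to 0.20, limma adjusted p = 0.751). Npy1r, which mediates many postsynaptic effects of neuropeptide Y, differed by -0.08 (95% interval -0.48 to 0.32). Npy2r, the presynaptic receptor, lay below the filter, with 16.4 to 44.3 in the wild type group and 11.6 to 25.4 in the other group. The intervals of Npy and Npy1r leave out the fall seen for Npy5r, although the difference between these genes was not tested.

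Vip, the precursor of vasoactive intestinal peptide and a marker of a class of cortical interneurons, rose. Its signal was 1130, 1262 and 1096 in wild type arrays and 1740, 1843 and 1557 in the double knockout label group. All 3 arrays of the latter stood above all wild type arrays, and the spread within each group was small. The log2 change was 0.55 (SE 0.11, 95% interval 0.32 to 0.79, limma adjusted p = 0.0453). The call held without wild type replicate 2 (adjusted p = 0.0356) and was lost without wild type replicates 1 (0.0965) and 3 (0.0761) and without double knockout replicates 1 (0.115), 2 (0.194) and 3 (0.117). With the replicate number as a block, a paired fit, the adjusted p was 0.0632 for Vip. The call was also lost with no filter (0.150), no intensity trend (0.0977), arrays shifted to 1 median (0.0550) and without wild type replicate 1 and double knockout replicate 2 together (0.287). In all, Vip passed in 5 of 15 alternatives, with log2 values between 0.48 and 0.62.

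Markers of GABA interneurons are given beside Vip. Of 21 tested marker genes 0 passed in limma and 1 had an unadjusted p under 0.05, a level that 16.6% of all tested probe sets reached. Their summed signal overlapped, with 6820 to 8319 in the wild type group and 6708 to 7603 in arrays under the double knockout label. The broad markers Gad1, which encodes a GABA-synthesising enzyme, and Slc32a1, the vesicular GABA transporter, differed by 0.01 and -0.05 (limma adjusted p = 0.984 and 0.869). Markers found in the interneuron class that holds Vip cells were mixed. Htr3a, a serotonin receptor subunit, read 77.2, 56.9 and 56.8 in the wild type group and 99.8, 66.1 and 104 in the other (log2 0.40, adjusted p = 0.321), and Adarb2 differed by 0.40 (adjusted p = 0.453). Prox1 lay below the filter, at 13.5 to 17.7 against 21.0 to 28.4, and so did Sp8, at 4.02 to 10.4 against 11.3 to 21.2. Neither overlapped, but at these low signals neither was tested and no difference is read from them. Calb2, which encodes calretinin, differed by 0.02 (adjusted p = 0.969), and Nr2f2 by -0.83 (adjusted p = 0.238). Other interneuron genes of the list also went both ways, with Ndnf at -0.29, Reln at -0.12 and Kit at 0.29 (limma adjusted p = 0.466, 0.816 and 0.420). The part of the number of such cells in the Vip result was not tested.

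The receptors of this peptide were dim. Vipr1 read 63.5, 59.7 and 54.3 in wild type arrays and 58.9, 67.9 and 85.3 in the other group (log2 0.20, 95% interval -0.17 to 0.56). Vipr2 lay below the filter, at 8.59 to 16.9 and 11.5 to 24.4. Adcyap1, the precursor of the related peptide PACAP, differed by -0.09 on the brighter probe set (limma adjusted p = 0.834). Its receptor Adcyap1r1 read 449, 452 and 464 against 499, 387 and 476, a log2 difference of -0.01 with a 95% interval of -0.27 to 0.25. Its other probe sets differed by 0.09 and 0.06.

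**Figure D2:**
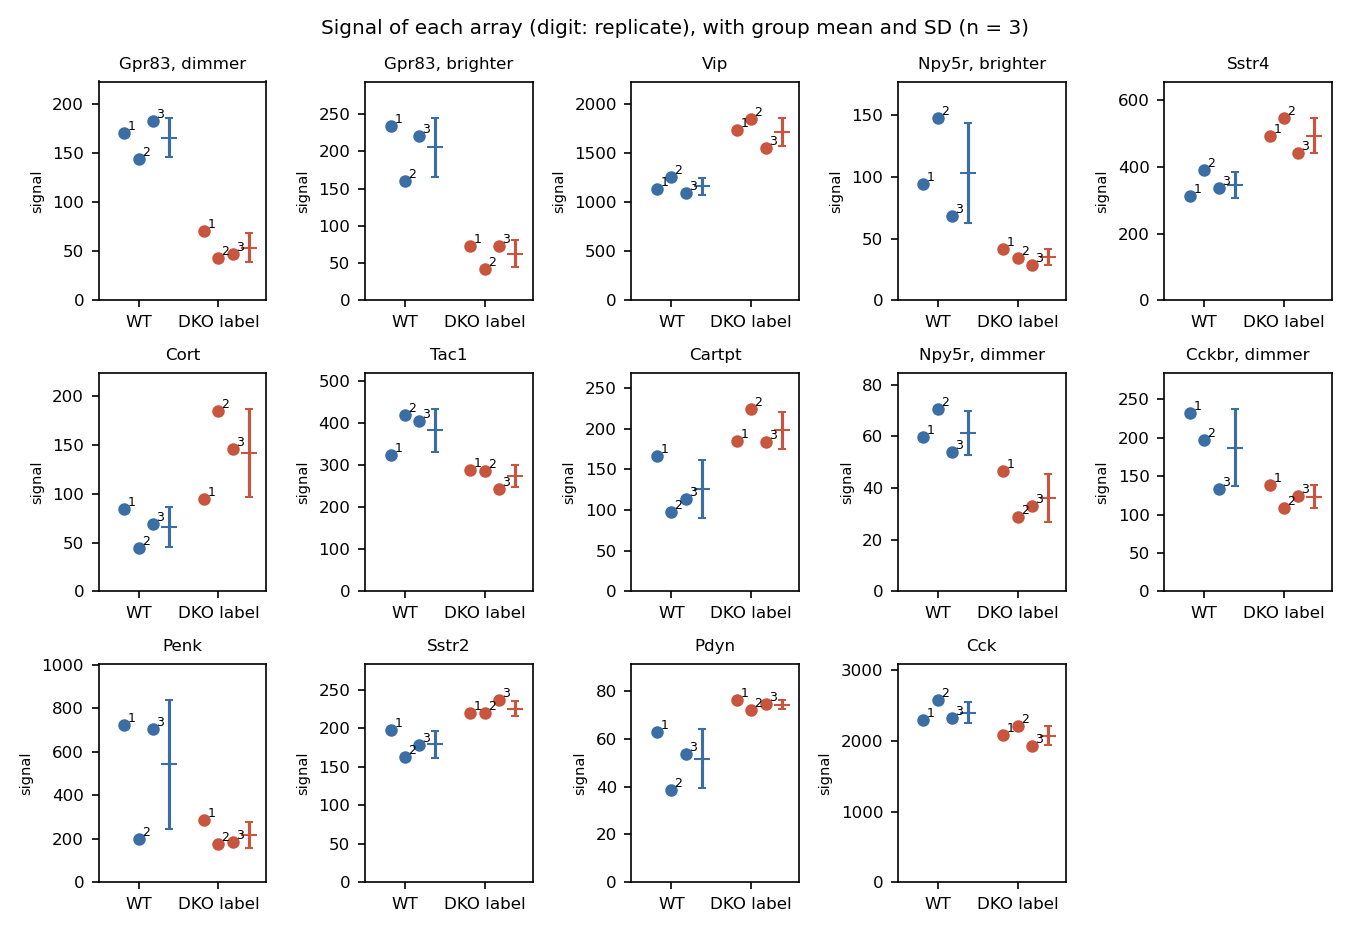
Signal (linear axis from 0) of each array for the 14 tested probe sets with an unadjusted p under 0.05 or no overlap, wild type (WT) left and double knockout label (DKO) right, digits giving the replicate and bars the group mean and SD (n = 3). Gpr83 and Npy5r are lower and Vip is higher in every array labelled double knockout, and wild type replicate 2 stands apart for Penk.

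The upstream sequences of the 3 changed genes are shown because the targeted factors bind DNA, with Sstr2 added because it alone of the members held an Egr motif. RefSeq promoters of build GRCm38.p6 were in the table for 36 of the 44 genes, as 43 promoters, and the 250 bases before the start were searched on both strands. The Egr motif forms were GCGTGGGCG and GCGGGGGCG, and the cAMP response element, bound by the activity-regulated factor CREB, was TGACGTCA or its short form TGACGT, which lies within the full form. Capitals mark these letters.
Gpr83: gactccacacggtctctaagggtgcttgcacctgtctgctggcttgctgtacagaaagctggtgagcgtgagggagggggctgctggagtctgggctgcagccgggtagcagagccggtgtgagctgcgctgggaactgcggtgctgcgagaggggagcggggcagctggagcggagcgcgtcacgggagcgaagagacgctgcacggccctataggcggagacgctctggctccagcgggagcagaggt
Npy5r: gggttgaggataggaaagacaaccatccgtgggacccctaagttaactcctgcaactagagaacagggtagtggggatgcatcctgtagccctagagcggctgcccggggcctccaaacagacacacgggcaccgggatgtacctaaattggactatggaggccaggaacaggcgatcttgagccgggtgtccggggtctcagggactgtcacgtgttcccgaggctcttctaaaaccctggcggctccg
Vip: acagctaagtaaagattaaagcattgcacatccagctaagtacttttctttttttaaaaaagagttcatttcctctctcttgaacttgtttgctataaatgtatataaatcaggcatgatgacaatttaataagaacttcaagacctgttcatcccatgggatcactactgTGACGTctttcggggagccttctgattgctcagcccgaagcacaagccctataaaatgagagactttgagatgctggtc
Sstr2: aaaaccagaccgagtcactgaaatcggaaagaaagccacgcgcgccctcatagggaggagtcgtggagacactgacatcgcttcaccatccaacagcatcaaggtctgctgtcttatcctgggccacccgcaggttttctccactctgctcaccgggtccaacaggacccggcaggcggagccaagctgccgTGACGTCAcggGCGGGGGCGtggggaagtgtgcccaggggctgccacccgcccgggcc

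These stretches lie at chr9:14859960-14860209 on the plus strand for Gpr83, chr8:66688095-66688344 on the minus strand for Npy5r, chr10:5638968-5639217 on the plus strand for Vip and chr11:113619077-113619326 on the plus strand for Sstr2, all 5′ to 3′ in the gene's direction. Neither Egr form was found before Gpr83, Npy5r or Vip, which says only that these letters are not in this window. The G form stood 47 bases before the start of Sstr2 and was held by 2.57% of all 32851 promoters, and the T form by 0.536% and by 0 of the 43 member promoters. The short cAMP element stood 79 bases before the start of Vip and was held by 6.47% of all promoters and by 9 of the 43 of the members. The full form was held by 1.55% of all promoters and by those of Sstr2, Cartpt and Sst. A match is a string of letters and not a measured binding site.

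Among the somatostatin genes, the receptors Sstr2 and Sstr4 and the peptide gene Cort stood higher without passing the test. Sst, the precursor of somatostatin, which inhibits release from many neurons and marks a large interneuron class, read 2025, 1353 and 2231 in the wild type group and 1583, 1424 and 1517 in those with the double knockout label. The groups overlapped through wild type replicate 2, and the log2 difference was -0.28 (95% interval -0.65 to 0.09, limma adjusted p = 0.434). Cort, the precursor of cortistatin, a relative of somatostatin that shares its receptors, read 84.6, 44.6 and 68.7 against 94.6, 185 and 146. The Cort groups did not overlap, though double knockout replicate 1 lay close to wild type replicate 1, and the difference in log2 was 0.93 (SE 0.24, adjusted p = 0.109 in limma). It passed in none of its 14 alternatives (adjusted p = 0.0695 to 0.331).

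Sstr4 read 313, 389 and 337 in wild type arrays and 491, 546 and 442 in the other group, with no overlap (log2 0.49, SE 0.12, limma adjusted p = 0.0971). A second Sstr4 probe set lay below the filter, with 12.8 to 32.4 and 16.8 to 47.3. Sstr2 read 197, 162 and 179 in the wild type group and 219.9, 220.1 and 237 in the double knockout label group, also without overlap (log2 0.31, SE 0.12, adjusted p = 0.238). Sstr3, the receptor of neuronal cilia, differed by -0.14 (adjusted p = 0.661).

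Sstr1 could not be read as 1 level per group. It gave 163, 2.74 and 118 in wild type arrays and 1.53, 44.2 and 103 in arrays under the double knockout label, near 0 in 1 array of each group. The log2 difference of -0.61 had a 95% interval of -2.48 to 1.25, the widest of the tested members.

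No tachykinin or cholecystokinin gene passed. Of 3 tested tachykinin genes 2 were lower and 1 higher, and both cholecystokinin genes were lower. Tac1, the precursor of substance P, read 325, 419 and 406 in the wild type group and 289.95, 288 and 244 in the other group, with no overlap (log2 -0.46, SE 0.13, limma adjusted p = 0.128). Tac2, the precursor of neurokinin B, differed in the opposite direction by 0.26 (adjusted p = 0.431), and its receptor Tacr3 by -0.26 on the tested probe set (adjusted p = 0.696). The other Tacr3 probe sets lay below the filter, and the dimmest of them read 15.8 to 18.4 against 8.18 to 10.6. Tacr1, the receptor of substance P, stayed under 4 signal units, where no level can be read.

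Cck, the precursor of cholecystokinin, read 2300, 2578 and 2324 in wild type arrays and 2077, 2203 and 1934 in those with the double knockout label. The groups did not overlap, but the log2 difference was small at -0.21 (SE 0.10, limma adjusted p = 0.331). Its brain receptor Cckbr read 576, 648 and 367 against 426, 384 and 447 on the brighter probe set, with overlap (log2 -0.29, adjusted p = 0.454). The dimmer Cckbr probe set read 232, 196 and 133 against 138, 108 and 124 (log2 -0.52, SE 0.19, adjusted p = 0.215). On both, wild type replicate 3 was the lowest wild type array. It lay below all arrays of the other group on the brighter probe set and within their range on the dimmer one.

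Of the opioid precursors, Penk stood lower and Pdyn higher without passing the test. Whether Penk passed depended on wild type replicate 2. Penk, the precursor of the enkephalins, read 724, 201 and 703 in the wild type group and 285, 178 and 185 in the double knockout label group. Wild type replicate 2 lay within the range of the latter, far below the other wild type arrays. The log2 difference was -1.10 (SE 0.40, 95% interval -1.99 to -0.21, limma adjusted p = 0.215). Without wild type replicate 2 it was -1.68 (adjusted p = 0.00372), the only one of 15 alternatives in which Penk passed.

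Trhr, the receptor of thyrotropin-releasing hormone, and Trh, the precursor of that hormone, also had wild type replicate 2 as the lowest wild type array. Trhr read 130.5, 44.3 and 211 in wild type arrays and 74.5, 65.2 and 55.9 in the other group (log2 -0.64, SE 0.38, limma adjusted p = 0.433). Without wild type replicate 2 its difference was -1.17 (adjusted p = 0.0350). A second Trhr probe set, below the filter, read 39.0, 2.95 and 41.7 against 17.0, 22.6 and 14.7. Trh also lay below it, at 41.0, 2.09 and 41.1 against 6.44, 5.97 and 1.67. For Penk, Trhr and Trh wild type replicates 1 and 3 were thus the highest of the 6 arrays.

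Enkephalin is abundant in striatal projection neurons, so markers of the striatum are given beside Penk. The summed signal of the 9 striatal markers with a probe set was 931, 1062 and 1125 in the wild type group and 1102, 970 and 1001 in the other group. Drd2, the dopamine receptor of striatal cells that make enkephalin, lay below the filter at 29.2, 12.1 and 47.8 in wild type arrays and 10.7, 12.02 and 16.7 in arrays under the double knockout label. Six3, another striatal marker, read 43.5, 16.8 and 51.6 against 16.6, 32.0 and 17.4. Ppp1r1b, which encodes the striatal phosphoprotein DARPP-32, read 259, 217 and 312 against 252, 255 and 312. Drd2, Six3 and Ppp1r1b thus had wild type replicate 2 below the other wild type arrays, as did Penk. The same held for Rgs9, at 118, 105 and 151 against 83.2, 63.7 and 105 (log2 -0.50, limma adjusted p = 0.228). It also held in wild type for Rarb (47.6, 43.0 and 80.7), Gpr6 (120, 84.1 and 90.9) and, below the filter, Isl1 (4.18, 0.784 and 9.41). Pde10a, a phosphodiesterase of striatal neurons, had wild type replicate 2 highest (252, 463 and 264 against 369.8, 284 and 280.2). Drd1 had wild type replicate 1 lowest (58.5, 120.1 and 118 against 139.9, 119 and 136). The median deviation of the 9 markers from their wild type means was -0.03, -0.24 and 0.27 for wild type arrays and -0.04, -0.14 and -0.20 in the other group, lowest in wild type replicate 2, unlike the sum. Rorb, a marker of cortical layer IV, went the other way in wild type, with 631 in wild type replicate 2 against 163 and 169. The part of striatal tissue or of the cortical area sampled in the Penk result was not tested.

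Pdyn, the precursor of the dynorphins, read 62.8, 38.6 and 53.6 in the wild type group and 75.9, 72.1 and 74.5 in those with the double knockout label. The groups did not overlap, and the latter arrays were nearly equal (log2 0.43, SE 0.17, limma adjusted p = 0.245). Pnoc, the precursor of nociceptin and a neighbour of Egr3 within 5 Mb, differed by 0.06 (95% interval -0.25 to 0.37). Its receptor Oprl1 was the one opioid-family receptor above the filter, and its 3 probe sets differed by 0.07, -0.05 and -0.07. Oprm1, Oprd1 and Oprk1, the mu, delta and kappa receptors, gave at most 48.1 signal units on any array and were not tested.

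**Figure D3:**
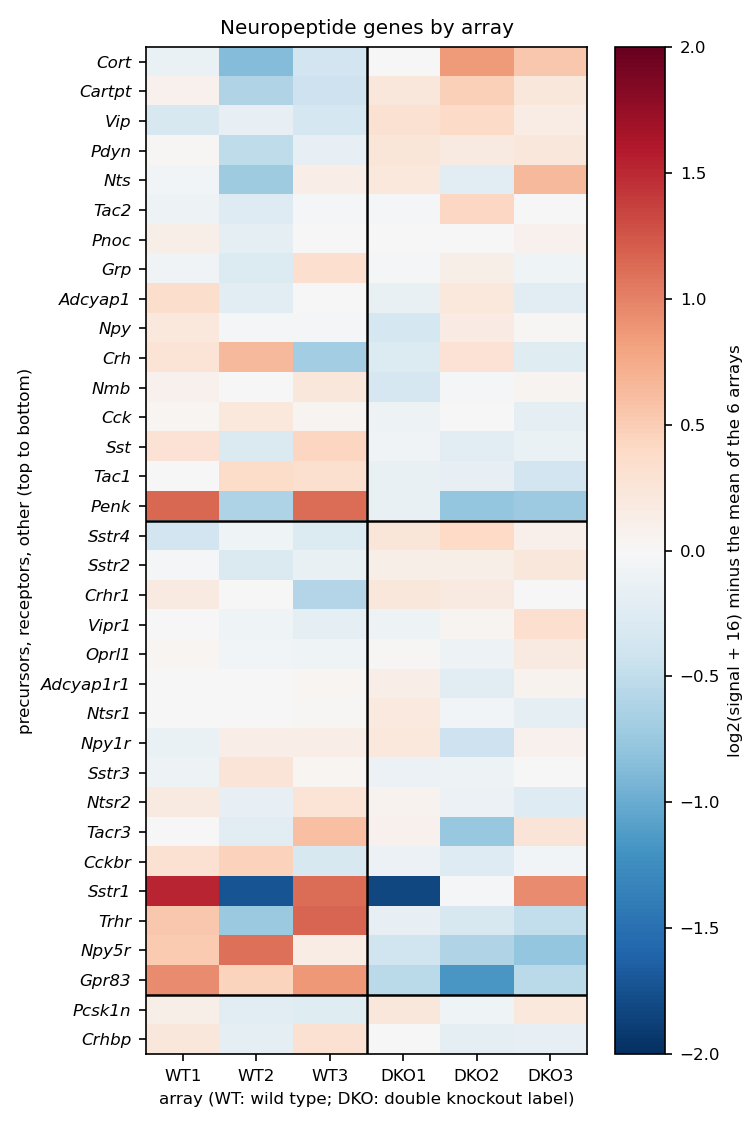
Log2(signal + 16) of each of 34 tested neuropeptide genes minus its mean over the 6 arrays (colour), with wild type (WT) and double knockout label (DKO) arrays in columns. Gpr83, Npy5r and Vip separate the groups, whereas Penk and Trhr are high in wild type replicates 1 and 3 and Sstr1 is low in wild type replicate 2 and double knockout replicate 1.

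Of the remaining precursors Cartpt stood apart by group without passing. Cartpt, the precursor of the CART peptides, read 166, 97.5 and 114 in wild type arrays and 185, 224 and 184 in the other group (log2 0.62, SE 0.18, limma adjusted p = 0.137). The lowest array labelled double knockout was above the highest wild type array. Nts, the precursor of neurotensin, overlapped at 145, 86.5 and 168 against 177, 128 and 247 (log2 0.43, adjusted p = 0.431). The neurotensin receptor Ntsr1 differed by -0.03. Ntsr2, which astrocytes express, differed by -0.20 (95% interval -0.50 to 0.10).

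The stress peptide genes overlapped throughout. Crh, the precursor of corticotropin-releasing hormone, read 270.0, 356 and 130.1 in the wild type group and 179.5, 274 and 185 in the other group (log2 -0.15, 95% interval -0.81 to 0.51, limma adjusted p = 0.842). Its receptor Crhr1 differed by 0.26 on the brighter probe set and -0.04 on the dimmer one. Crhbp, a secreted protein that binds the hormone, differed by -0.24 (adjusted p = 0.459).

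Grp, the precursor of gastrin-releasing peptide, read 395, 343 and 530.4 in wild type arrays and 407, 453 and 389 in the other group, a log2 difference of -0.0012 (95% interval -0.34 to 0.34). Nmb, the precursor of neuromedin B, differed by -0.21 (limma adjusted p = 0.552). Grpr, the receptor of gastrin-releasing peptide, and the galanin genes Gal and Galr1 lay below the filter. The 10 genes below it were Npy2r, Vipr2, Tacr1, Oprm1, Oprd1, Oprk1, Trh, Gal, Galr1 and Grpr, of which 8 are receptors. At these signals no difference could be read in either direction.

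Precursors and receptors had similar counts, and the difference between them was not tested. Of 16 tested precursors 9 were lower and 7 higher, with a median log2 difference of -0.05, and of 16 tested receptors 11 were lower and 5 higher, with a median of -0.11. Against these counts stand those of the whole array. Over the 34 genes the median was -0.09, against 0.0083 over all 11053 tested genes, and 61.8% were lower against 48.5%. The median size of the difference in either direction was 0.26, against 0.15 for all tested genes. The spread between arrays of 1 group was also larger for the members, with a median SD of 0.21 on the log2 scale against 0.17. For 27 of the 34 genes the 95% interval lay within a 2-fold change of signal + 16 in either direction. For dim genes this scale understates the change of the signal itself. Of 7 genes with several tested probe sets 4 had all of them on the same side of 0.

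Other genes of peptide handling were read from lists of processing, degradation, further peptides and further receptors. Scg5, which encodes the chaperone 7B2 of the convertase Pcsk2, rose from 2095, 2297 and 1927 in wild type to 2878, 3159 and 3071 in the double knockout label group, without overlap. In log2 its change was 0.53 (SE 0.10, limma adjusted p = 0.0497). The call held without wild type replicate 2 (adjusted p = 0.0391) and was lost without each other array (0.0677 to 0.217). It was the 1 gene of 18 tested processing and dense core vesicle genes to pass, with 17 not past the threshold and a median of 0.03. Of all tested probe sets 1.02% passed. An unadjusted limma p under 0.05 was found for 6 of the 18 genes, against 16.6% of all tested probe sets. Their summed signal was 22935.9 to 26214.5 in wild type arrays and 27942.7 to 29156.5 in the other group, while their median deviation overlapped (-0.09 to 0.01 and -0.04 to 0.09 in log2).

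None of the other 3 lists had a gene past the threshold in limma. Of 12 tested peptidase genes 3 had an unadjusted p under 0.05, against 16.6% of all tested probe sets, with a list median of -0.12. Ece2, an endothelin-converting enzyme, read 87.4, 36.3 and 89.7 in the wild type group and 17.3, 29.9 and 25.3 in the other group (log2 -1.06, limma adjusted p = 0.102), and passed without wild type replicate 2 (-1.39, adjusted p = 0.0139). The mean of Ece2 in the lower group, 24.2, was under the filter level of about 36.6. Ece2 was thus tested only through the wild type signals. Trhde, which degrades thyrotropin-releasing hormone, read 115, 180.4 and 105 against 92.1, 87.1 and 85.0 (log2 -0.49, adjusted p = 0.228).

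Of 6 tested further peptide genes 2 had an unadjusted p under 0.05, against the same 16.6%. Apln, the precursor of apelin, read 181, 185 and 113 in wild type arrays and 85.6, 93.8 and 92.3 in arrays under the double knockout label (log2 -0.69, limma adjusted p = 0.109), and passed without wild type replicate 3 (-0.90, adjusted p = 0.0292). Nppc, the precursor of C-type natriuretic peptide, read 105, 89.5 and 96.3 against 149, 124 and 121 (log2 0.38, adjusted p = 0.216). Of 12 tested further receptor genes 0 had an unadjusted p under 0.05. The lowest p values there were those of Ednrb, an endothelin receptor (log2 -0.25, adjusted p = 0.384), and Ramp3, a receptor partner protein (log2 0.42, adjusted p = 0.421).

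**Figure D4:**
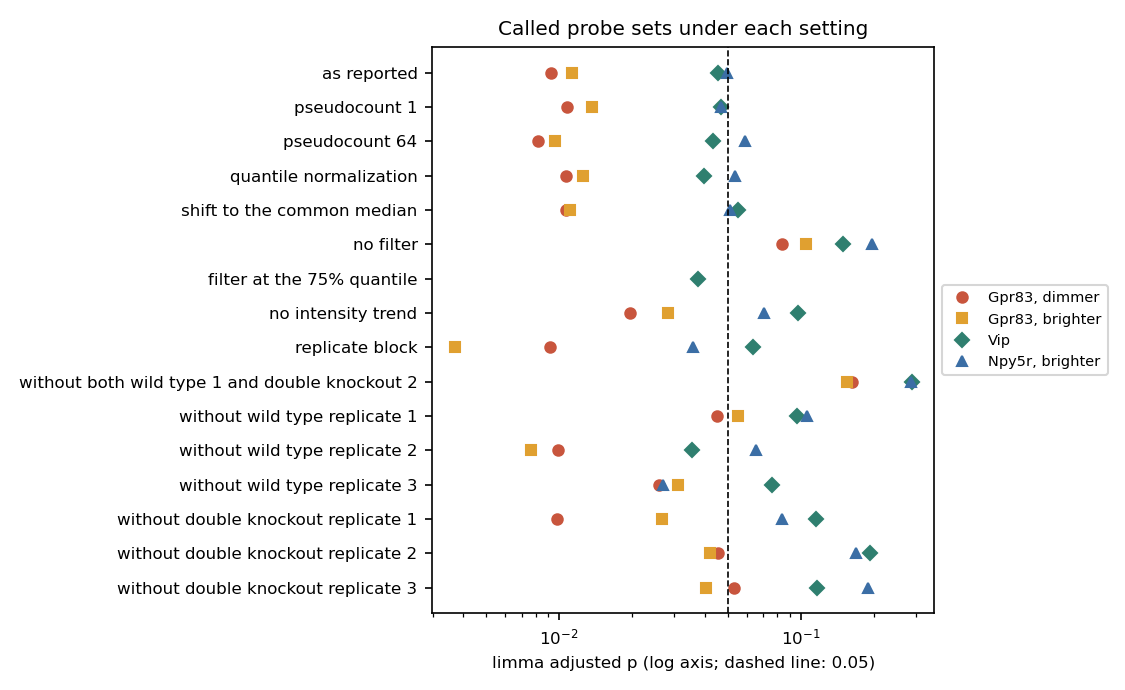
Limma adjusted p (log axis) of the 4 called member probe sets under each setting of the analysis, with the threshold of 0.05 dashed. Gpr83 stays below it in most settings, while Vip and the brighter Npy5r probe set lie on either side of it, and no point is drawn where the stricter filter removed a probe set.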

How the data were processed

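The deposited values are 1 intensity per probe set and array on a linear scale, as the authors made them. The sources used here name no software or settings for this step. The mean of each array after trimming 2% at each end was 150.0, so the arrays had been scaled alike and a change in all RNA would not show. The 64 control probe sets were left out. Signals under 1 were set to 1 and log2(signal + 16) was taken, which understates changes of dim probe sets. Probe sets with a mean above the median were tested with limma 3.58.1 in R 4.3.3 (group as the only term, intensity trend, two-sided, Benjamini-Hochberg over all 22518 tested). For counts of genes, the tested probe set with the highest mean stood for its gene. Symbols came from the platform annotation, updated by RefSeq gene number for the lists. The fit was tested on simulated data. It recovered 9.2% of changes of 0.5 in log2 and 60% of changes of 1, and 5.73% of its calls were false. Most differences of 0.5 were thus missed. The noise was drawn apart for each probe set, so differences shared by many probe sets of an array were not part of it. The members and lists were chosen with earlier results of these data known. Values of every array are given for members with an unadjusted p under 0.05 or no overlap between groups on a tested probe set, and for others where arrays disagreed. Of the lists, genes past the threshold or the 2 with the lowest p are named. The marker genes named singly were chosen after their values were seen. Alternatives were other pseudocounts, scalings and filters, no trend, a replicate block and arrays left out. Figures were drawn with matplotlib 3.10.9.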

Additional observations from a re-analysis of the deposited data

How the results depend on the processing

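The deposited signals carry no read depth, and 3 arrays a group limit the precision: the 95% interval of a tested member reached a median of 0.37 in log2 to either side. The members' median log2 difference stayed below 0 in every alternative (-0.10 to -0.03), within the spread of 0.117 between wild type arrays. Of 22518 probe sets 229 passed in limma, against 10 with no filter, 131 with no intensity trend, 12 without replicate 1 of wild type and replicate 2 of double knockout together, and 34 to 292 with 1 array left out. Of the member probe sets 4 passed, against 2 with a shift to the common median and 2 with no trend. With a filter at the 75% quantile 1 passed, and with no filter 0 passed (14 of 68 with an unadjusted p under 0.05). Without this pair of arrays 0 passed (12 of 43 unadjusted). With 1 array left out 1 to 5 passed. The count was lowest without wild type replicate 1 or double knockout replicate 3 and highest without wild type replicate 2. Of the pathway genes 1 passed. In limma 0 passed with a pseudocount of 1 (11 with an unadjusted p under 0.05), quantile normalization (8) or the shift (8). The same held with no filter (15), no trend (9), the replicate block (10) and without this pair of arrays (7). With 1 array left out 0 to 2 passed. The share of all tested probe sets with an unadjusted limma p under 0.05 was taken only for the fit as reported (16.6%). The unadjusted counts of the alternatives thus have no background beside them, and nothing is read from them. Same-numbered arrays did not deviate together (correlations of -0.15, 0.0013 and -0.10 over probe sets), so no pairing by number was seen. Taken from the group means of 3 arrays, these deviations cannot exclude a pairing. With the block 182 probe sets and 3 member probe sets passed, and Vip had a limma adjusted p of 0.0632. The sign turned for Grp with quantile normalization (0.016) and the shift (0.0065), and without this pair of arrays for Npy1r (0.021), 1 Adcyap1r1 probe set (0.087), 1 Oprl1 probe set (0.0102) and the dimmer Crhr1 probe set (0.01997). With 1 array left out the sign of these turned too, none past the threshold: Npy ranged from -0.21 to 0.039, Npy1r from -0.20 to 0.11, Sstr1 from -1.63 to 0.14, Adcyap1 (brighter) from -0.23 to 0.063, Adcyap1r1 from -0.081 to 0.096, -0.042 to 0.23 and -0.078 to 0.25, Tacr3 from -0.46 to 0.046, Pnoc from -0.023 to 0.13, Oprl1 from -0.0019 to 0.14 and -0.25 to 0.061, Crh from -0.54 to 0.14, Crhr1 (dimmer) from -0.25 to 0.11, Ntsr1 from -0.13 to 0.057 and Grp from -0.14 to 0.17. Some alternatives also set the number of probe sets tested or of arrays, and the cause of these changes was not tested.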
